A study of Mus musculus with 13 samples.

Results

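The 10 immediate early genes Fos, Fosb, Jun, Junb, Jund, Egr1, Egr2, Ier2, Ier3 and Myc were followed through all 13 RNA-seq libraries of mouse oocytes taken around γ-irradiation, out of 49585 genes with a summed read estimate. They were chosen by name. The ovaries came from female CD-1 mice of postnatal day 5 and were cultured overnight before they received 0.5 or 0.2 Gy from a caesium source. At 0, 1, 2.5, 4 or 6 h the ovaries were trypsinised and the oocytes were separated from follicular cells by pipetting and repeated centrifugation, with 4 ovaries per time point. The labels place 0 h after irradiation and the study elsewhere places it before, so whether the 0 h ovaries had been irradiated is not settled. At 0.5 Gy there were 8 libraries: 2 each at 0, 1 and 4 h (replicate 1 of the generation labelled first, replicate 2 of the second) and 1 each at 2.5 and 6 h, both of the second. A table of read totals in the study names the generations of the 1 and 4 h libraries the other way round, and the labels' assignment is used below. At 0.2 Gy there were 5 libraries, 1 per time point, all of the third generation, so dose and generation cannot be told apart there. All libraries had the same overnight culture and isolation, but later ones were cultured for longer and every later time point was irradiated, so time in culture and time since irradiation cannot be told apart either. The labels do not say what a generation is or that replicates came from separate animals, so p-values measure the spread between these libraries.

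Immediate early genes are transcribed within minutes of a growth factor, wounding, tissue dissociation or stress, without new protein synthesis, and their mRNAs decay quickly. The signal commonly runs through MAP kinases to transcription factors already bound at the promoter, such as SRF with its ELK partners at the CArG box and CREB or ATF proteins at the cAMP response element. FOS and JUN family proteins pair to form AP-1, EGR proteins are zinc finger factors, and MYC drives growth genes with MAX. The question here is how far these genes moved with irradiation and time, against what the 0 h libraries, isolated in the same way, already showed.

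The letters of such elements can be read in the promoters of some members. RefSeq windows on GRCm38.p6, reaching from 250 bases before to 50 after a start site, matched 7 of the 10 members by symbol: Fos, Fosb, Jun, Junb, Jund, Egr2 and Ier3. The last 120 bases before the start are shown for the members whose windows held letters of such elements there, 5′ to 3′ on the gene's strand, with matched letters in capitals.
Fos, chr12:85473770-85473889, plus strand: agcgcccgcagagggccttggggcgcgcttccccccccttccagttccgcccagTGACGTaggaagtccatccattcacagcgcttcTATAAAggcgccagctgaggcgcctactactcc
Jun, chr4:95052223-95052342, minus strand: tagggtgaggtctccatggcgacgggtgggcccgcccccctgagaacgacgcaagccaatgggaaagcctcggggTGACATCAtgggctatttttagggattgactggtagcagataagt
Egr2, chr10:67537749-67537868, plus strand: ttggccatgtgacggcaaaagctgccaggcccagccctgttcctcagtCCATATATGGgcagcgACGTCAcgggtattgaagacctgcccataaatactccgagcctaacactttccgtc
In Fos the capitals mark TGACGT, the core of a cAMP response element, from base -66, and TATAAA from base -33. In Jun they mark TGACATCA, a match to TGACNTCA, from base -45. In Egr2, at the start site of one of its transcripts, they mark a CArG box from base -72 and TGACGT on the other strand from base -56. Both strands were searched for these letters and for the AP-1 letters TGANTCA, which no window of a member held. TGACNTCA and TGACGT can overlap each other. Over all 32851 windows, 1.63% held a CArG box, 8.83% TGACNTCA, 7.81% TGANTCA, 7.51% TGACGT and 13.6% TATAAA. The windows of Fosb, Jund and Ier3 held none of these letters, and that of Junb held only TATAAA, from base 1. A match is a description of letters and not a site of binding.

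All 10 members were detected in every library, from 9 reads for Egr2 in both second-generation libraries at 0 and 1 h to 4426 reads for Egr1 at 0 h, and all 10 passed the low-count filter of every fit. The libraries held 15709549 to 30430104 estimated reads, with the fewest in 0 h replicate 2 at 0.5 Gy, which also stood apart by granulocyte genes (S100a8 at 133 CPM against at most 5.66 elsewhere). The oocyte label held, with all 12 oocyte markers read in every library and Zp2, a zona pellucida protein, at 1032 to 2140 CPM. All 12 granulosa cell and 9 stroma markers were read in every library as well, with summed levels of 1355 to 2311 and 2091 to 3974 CPM, so the values below are those of oocytes with other ovarian cells. In such bulk RNA, fewer cells of a type and less RNA per cell cannot be told apart.

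Per length, as TPM (reads divided by transcript length and scaled to the library), Ier2 had the highest median level over the 13 libraries at 13.2 (range 4.17 to 25.9). Egr1 at 9.06, Jun at 8.26 and Fos at 7.36 TPM came next, and they were not ordered beyond their spread: Egr1 was above Jun in only 3 libraries and Jun above Fos in 8. Myc at 4.59, Ier3 at 4.18 and Jund at 3.51 TPM formed a second tier whose neighbours likewise exchanged places, in 5 and 6 of 13 libraries. Junb at 1.03, Egr2 at 0.567 and Fosb at 0.355 TPM were lowest. For Ier2, 9.65% of all 49585 genes had a higher median TPM, and for Fosb 39.4%.

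Fos, the partner of JUN proteins in AP-1 and the archetype of the class (chromosome 12, 85473890 to 85477273, plus strand, GRCm38), was highest at 0 h among the 0.5 Gy libraries, in CPM (reads scaled to the library's size). Replicates 1 and 2 had 95.4 and 80.6 CPM at 0 h, then 73.6 and 20.8 CPM (1 h) and 74.8 and 43.6 CPM (4 h), and the single libraries of 2.5 and 6 h had 46.7 and 37.8 CPM. Both 0 h libraries were thus above the other 6; in 10.9% of all genes tested the 0 h libraries did not overlap the others, in either direction. At 0.2 Gy the order differed, with 21.8, 40.3, 9.60, 61.5 and 42.5 CPM from 0 to 6 h. The 0 h library was there the second lowest, and the library at 2.5 h the lowest of all 13. Nearly all Fos reads, at least 98.8% in every library, were assigned to its main coding transcript.

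Fosb (chromosome 7, 19302696 to 19310051, minus strand), a second FOS family member, stayed under 9 CPM. After 0.5 Gy its replicates had 7.88 and 4.55 CPM at 0 h, then 8.82 and 2.60 CPM (1 h) and 3.43 and 6.22 CPM (4 h), with 5.99 and 2.33 CPM in the libraries of 2.5 and 6 h. At 0.2 Gy it ranged from 1.71 CPM at 0 h to 3.71 at 4 h, and the doses overlapped. Of its reads, pooled over the libraries, 49.2% were assigned to a form annotated with a retained intron, but that share ran from 10.6 to 75.6% between libraries at 52 to 218 reads per gene, so no change between its transcripts was read from it.

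Among the JUN family, Jun (chromosome 4, 95049034 to 95052222, minus strand), the main DNA-binding partner of FOS, was the steadiest abundant member. At 0.5 Gy its replicates had 55.5 and 82.9 CPM at 0 h, then 66.9 and 67.6 CPM (1 h) and 71.6 and 78.2 CPM (4 h), with 95.4 and 76.4 CPM in the libraries of 2.5 and 6 h. At 0.2 Gy it lay at 56.0, 82.2, 33.4, 86.3 and 83.3 CPM from 0 to 6 h. Only the library at 2.5 h and 0.2 Gy, the lowest, fell outside the spread of the 0.5 Gy libraries. Junb (chromosome 8, 84974484 to 84978718, minus strand), a weaker activator that can restrain JUN, varied 14.4-fold between its extremes, from 0.963 CPM at 2.5 h and 0.2 Gy to 13.8 CPM in 1 h replicate 1. Its duplicate, 1 h replicate 2, had 2.75 CPM. The Junb values are less certain than the others, since 6.55% of its 30-base words are shared with Prdx2, a peroxidase gene that overlaps it on the other strand at up to 480.1 CPM, and a kit that keeps the strand is not stated. Jund (chromosome 8, 70698949 to 70700616, plus strand), the JUN member that is usually present without a stimulus, ranged only from 7.75 to 21.9 CPM, with its highest value at 6 h and 0.2 Gy. Of its 30-base words 50.2% lie also in Gm11175 on the other strand, to which no read was assigned.

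Egr1 (chromosome 18, 34859823 to 34864984, plus strand), a zinc finger factor induced through SRF and ELK, differed at 0.5 Gy by the generation on the label. The libraries labelled first generation, of 0, 1 and 4 h, had 179, 140.0 and 121 CPM. Those labelled second had, from 0 to 6 h, 76.2, 38.1, 76.2, 76.1 and 75.0 CPM, all below those of the first. With the generations of 1 and 4 h exchanged, as in the table of read totals, the first would hold 179, 38.1 and 76.1 CPM and overlap the second. At 0.2 Gy, in the third generation, Egr1 had 37.5, 41.4, 24.0, 73.8 and 80.6 CPM from 0 to 6 h. Egr2 (chromosome 10, 67535475 to 67542188, plus strand), its relative known from nerve myelination, lay between 0.335 CPM in 1 h replicate 2 and 3.49 CPM at 6 h, both second-generation libraries at 0.5 Gy. At 9 to 93 reads per library, its level is the least precise of the members.

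Ier2 (chromosome 8, 84661331 to 84662852, minus strand), a small nuclear protein gene without introns, was above the range of its 0 h libraries in more libraries of 1 h or later, 5 of 10, than any other member. At 0.5 Gy its replicates had 34.5 and 45.6 CPM at 0 h, then 80.1 and 34.5 CPM (1 h) and 46.2 and 80.9 CPM (4 h), with 86.5 and 51.2 CPM in the libraries of 2.5 and 6 h. At 0.2 Gy it had 22.9, 37.1, 13.2, 39.7 and 42.5 CPM from 0 to 6 h, and none of these exceeded the higher 0 h library at 0.5 Gy. Ier3 (chromosome 17, 35821684 to 35822923, plus strand), a modulator of survival signalling and a known NF-κB target, spanned only 6.79 to 13.5 CPM, or 2.00-fold. Myc (chromosome 15, 61985391 to 61990374, plus strand) is the growth regulator among the members. At 0.5 Gy its replicates had 28.8 and 26.0 CPM at 0 h, then 20.6 and 31.9 CPM (1 h) and 22.0 and 33.5 CPM (4 h), with 11.8 and 16.7 CPM in the libraries of 2.5 and 6 h. At 0.2 Gy Myc ended at its highest value of all, 45.8 CPM at 6 h, after 32.0, 19.8, 23.9 and 15.9 CPM at the earlier times.

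**Figure D1:**
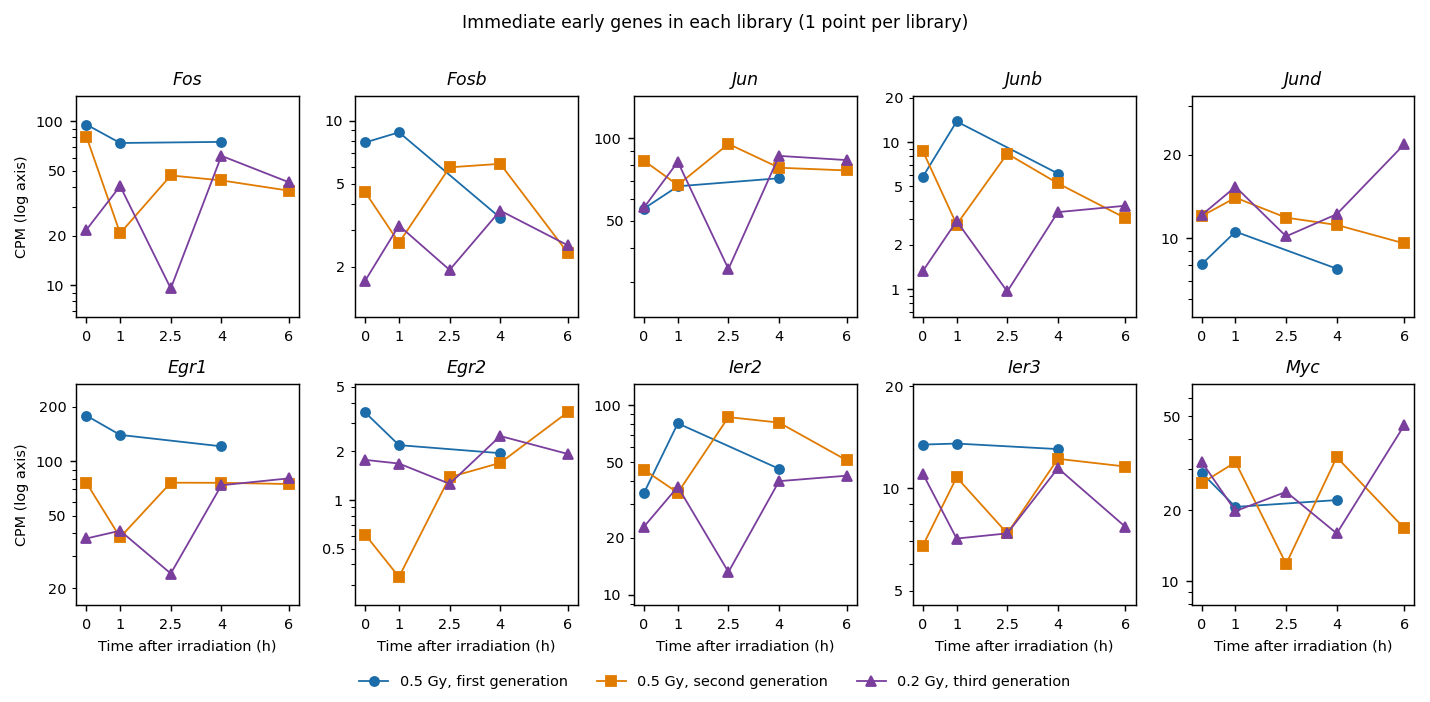
Level of each immediate early gene in CPM (log axis with its own range for each gene) against time after irradiation in hours, with 1 point per library and lines joining libraries of 1 generation (circles for the first, squares for the second, triangles for the third). The generations do not share a common course: Fos starts at 95.4 and 80.6 CPM at 0.5 Gy but at 21.8 CPM at 0.2 Gy, and Egr1 is highest in the 3 libraries labelled first generation.

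The 3 libraries at 0 h already differed widely in several members. Between the lowest and highest 0 h library Junb differed 6.54-fold, Egr2 5.69-fold, Egr1 4.76-fold, Fosb 4.60-fold and Fos 4.37-fold, whereas the median gene tested differed 2.02-fold. Ier2 and Ier3 at 1.99-fold and 1.98-fold, Jund at 1.51-fold, Jun at 1.49-fold and Myc at 1.23-fold differed less. Of the 100 values of the 10 members in the 10 libraries of 1 h or later, 67 lay within the range of that gene's 0 h libraries, 18 above it and 15 below it; over all genes tested, the median number of these 10 libraries was 6 within the range, 1 above and 1 below, each median taken on its own. No library of 1 h or later was above the 0 h range for Fos or Egr1, while 5 were for Ier2, and 7 were below it for Myc, whose 0 h range was the narrowest of the members. For comparison, of 8 radiation response genes 6 were above their 0 h ranges in 7 of the 7 libraries at 2.5 h or later, among them Mdm2 and Cdkn1a, p53 family target genes that encode a p53 ligase and a cell cycle inhibitor. Ccng1 and Eda2r were above in 6 of 7, the 0 h range of Eda2r being 3.80-fold.

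None of the 10 members was called between time points at 0.5 Gy. A call required an adjusted p under 0.05 from edgeR's quasi-likelihood test (Benjamini-Hochberg over all genes tested) and a log2 fold change over 1 in size. Over all 4 later time points together, where the F test called 0.00% of 28468 genes, the members' adjusted p was 1.00 and none had an unadjusted p under 0.05, against 3.84% of all genes. Fits by DESeq2's likelihood ratio test called none of the members either. Taking each time point against 0 h in that edgeR fit, 1 of 40 values of the members had an unadjusted p under 0.05, that of Myc at 2.5 h (-1.18, SE 0.46, adjusted p = 0.88), against 5.59% of genes at that time, 5.82% at 4 h and 5.94% at 6 h. Ier2 at 2.5 h gave 1.14 (SE 0.51, adjusted p = 0.88). Both rest on 1 library at 2.5 h, and 0.00% of genes were called at 2.5, 4 or 6 h. At 1 h against 0 h, the earliest time after irradiation, 0.00% of genes were called, and only Fos had libraries that did not overlap, as 30.8% of genes had. The fitted change of Fos was there -0.88 on the log2 scale (SE 0.52), of Egr1 -0.50 (SE 0.59), of Ier2 0.54 (SE 0.43), of Junb 0.21 (SE 0.68) and of Jun -0.02 (SE 0.28), each with an adjusted p of 1.00. For Fos the change was -2.05 without 1 h replicate 1 and -0.26 without 1 h replicate 2, and for Egr1 -1.71 and 0.14. None of the members had an unadjusted p under 0.05, which 3.98% of genes had, but 2 had one without 1 h replicate 1 and 1 without 1 h replicate 2. DESeq2's Wald test called none. None of the marker genes of other cells was called at 1 h either: 8 of 9 stroma genes were above 0 (median 0.43), 4 of 5 endothelial (0.61) and 5 of 6 macrophage and leukocyte genes (0.75), and all 6 granulocyte genes were below 0 (-4.08). The summed stroma level was 2983 and 2848 CPM at 0 h and 3974 and 3676 CPM at 1 h, and the part of these cells was not tested. With 2 libraries a side the SE ran from 0.28 for Jun to 0.97 for Egr2. The summed granulocyte level was 5.58 and 366 CPM at 0 h and 14.6 and 8.62 CPM at 1 h. The median of -4.08 thus rests on 0 h replicate 2. The reported edgeR fit called no gene at 1 h, while DESeq2's Wald test called 30 and the fit without the filter 30. The lack of a called member at 1 h in the reported fit therefore sets no limit on the size of the members' changes.

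At the higher dose the members' estimates after irradiation did not all share a direction, and no test of direction was made. The mean of the 4 later time points against 0 h called 0.00% of genes, 8.41% having an unadjusted p under 0.05 but none of the members. DESeq2's Wald test called none of the members, with 1 at an unadjusted p under 0.05. The count was 2 without the filter and without either 1 h library, and 1 with the replicate block. Of the members 4 had estimates above 0, with a median of -0.21, against -0.03 over all genes tested. Fos had the most negative estimate, -0.87 (SE 0.41, adjusted p = 0.63), from 88.0 ± 10.4 CPM (SD, n = 2) at 0 h to 49.5 ± 21.1 CPM (SD, n = 6) after irradiation. Ier2 had the highest, 0.70 (SE 0.37, adjusted p = 0.65), from 40.1 ± 7.86 to 63.2 ± 21.9 CPM. Without 0 h replicate 2, the library with granulocyte genes, Fos gave -0.98 and Ier2 0.92 (adjusted p = 0.63 for each), and Egr1 -1.05 instead of -0.57. Without 0 h replicate 1 Egr1 gave 0.16, so its direction rests on that library. With all libraries kept, the alternative fits, the replicate block among them, gave -0.60 to -0.19 for Egr1. The libraries at 2.5, 4 and 6 h were set against those at 0 and 1 h, where 0.128% of 22588 genes were called. They gave no called member, 3 estimates above 0 and a median of -0.23 against -0.02 over all genes. The libraries of 2.5 and 6 h were labelled second generation, so time and generation were partly mixed here. With the replicate block Egr1 gave 0.14 instead of -0.32 and Ier3 0.14 instead of -0.01, while the other members kept their sign. Of marker genes, 1 of 9 stroma (median -0.22) and 3 of 12 granulosa cell genes (-0.12) were above 0. All 5 red blood cell genes (0.50) and 3 of 4 ovarian surface epithelium genes (0.37) were above 0. None of these markers was called, and the part of these cells was not tested. No member's late libraries were clear of its early ones, as those of 5.26% of genes were. DESeq2's Wald test called none there, and none of the members had an unadjusted p under 0.05, against 9.06% of genes; 1 did without 1 h replicate 1, 1 h replicate 2 or 4 h replicate 2. In these same libraries all 8 radiation response genes had estimates above 0, and 7 of them were called by the edgeR test. Mdm2 rose by 2.63 (SE 0.29, adjusted p = 0.0036) and Cdkn1a by 3.32 (SE 0.36, adjusted p = 0.0036), from 62.7 to 390.9 CPM and from 6.46 to 64.9 CPM. These 8 genes had been picked with earlier results of these data known, so their calls are no test. They show only that changes of their size can pass in these libraries, not whether smaller ones would.

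After 0.2 Gy, in a fit without the 2.5 h libraries, all 10 estimates at 4 and 6 h against 0 and 1 h were above 0. Their median was 0.36 against -0.03 over all genes, but none passed the test in a comparison that called 0.0462% of 28162 genes. The 2.5 h library left out at 0.2 Gy was the lowest of all libraries for Fos, Jun, Junb, Egr1 and Ier2. At 0.5 Gy the 2.5 h library was counted as late. A 0.2 Gy fit with 2.5 h among the late libraries was not made, so these estimates describe 4 and 6 h only. Their shared direction was not tested. Egr1 gave 0.97 (SE 0.52, adjusted p = 0.72), from 39.5 ± 2.76 to 77.2 ± 4.78 CPM (SD, n = 2 each), and Fos gave 0.74 (SE 0.56, adjusted p = 0.79). For Fos it was 0.41 without the 0 h library, 1.26 without that of 1 h and 0.44 without that of 4 h, while Egr1 stayed at 0.91 to 1.05. The estimates of Jund, Ier3 and Myc fell below 0 when 1 of the libraries was left out (lowest -0.16, -0.25 and -0.69). For 6 of the members the 2 later libraries were above the 2 earlier ones, as 46.6% of genes did not overlap in one direction or the other. None of the marker genes of other cells was called in the same comparison, and most of their estimates were above 0: 11 of 12 granulosa cell genes had estimates above 0 with a median of 0.48, 8 of 9 stroma genes with a median of 0.53, all 5 red blood cell genes with a median of 0.73 and 3 of 4 ovarian surface epithelium genes with a median of 0.78. Of these genes 3 granulosa cell, 1 stroma and 1 red blood cell gene had an unadjusted p under 0.05. For endothelial cells 3 of 5 estimates were above 0 (median 0.12) and for macrophages and leukocytes 3 of 6 (median -0.10). The summed granulosa cell level was 2001 and 1554 CPM in the early and 1788 and 2311 CPM in the late libraries. That of red blood cells was 2214 and 2208 CPM in the early and 4189 and 2735 CPM in the late libraries. Stroma sums overlapped, at 3039 and 2091 CPM early and 2989 and 3523 CPM late, and those of ovarian surface epithelium were 21.8 and 20.2 CPM early and 34.6 and 11.4 CPM late. The part of these cells in the members' values was not tested. No member had an unadjusted p under 0.05, which 7.29% of genes had (1 did without the filter, with the replicate block or without 1 h replicate 2 at 0.5 Gy), and DESeq2's Wald test called none. The difference of this change between the doses was 1.43 for Junb (SE 0.82), 1.22 for Egr1 (SE 0.65) and 1.12 for Fos (SE 0.70), with adjusted p of 0.65 to 0.68 and no called member; 0.0320% of genes were called and 8.14% had an unadjusted p under 0.05, none of them a member, nor did DESeq2 call one. Without 1 h replicate 2 at 0.5 Gy 3 members had such a p, and 1 did without the filter or with the replicate block. Leaving out 1 library gave 0.99 to 2.10 for Junb, 0.87 to 1.51 for Egr1 and 0.79 to 1.64 for Fos. The late libraries of the 2 doses were clear of each other for Jun, Jund, Ier2 and Ier3, as for 22.3% of genes. For the difference between doses 8 of 10 members had estimates above 0 (median 0.47). So did all 9 stroma genes (0.78), 11 of 12 granulosa cell genes (0.40), 4 of 5 endothelial genes (0.09) and 3 of 5 red blood cell genes (0.10). Of the stroma and the granulosa cell genes 2 each had an unadjusted p under 0.05. None of these markers was called, and the part of these cells was not tested.

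**Figure D2:**
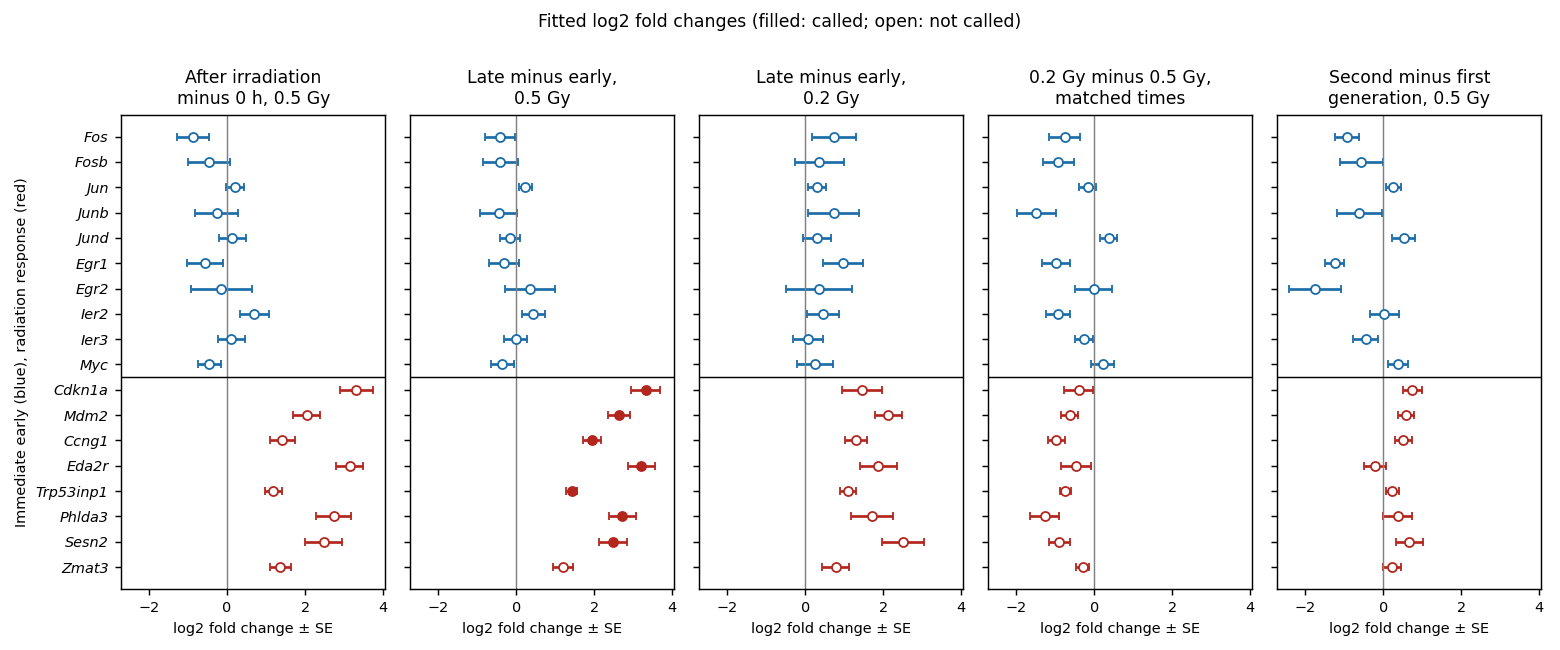
Fitted log2 fold change with its standard error (points and bars) of the 10 immediate early genes (blue) and 8 radiation response genes (red) in 5 comparisons, with called genes filled. The members spread about 0 between 0 h and later times, while 7 of the 8 radiation response genes are filled in the late against early comparison at 0.5 Gy.

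At matched times, 0.2 Gy was compared with 0.5 Gy. Junb averaged 2.45 ± 1.23 CPM (SD, n = 5) at 0.2 Gy and 6.73 ± 3.58 CPM (SD, n = 8) at 0.5 Gy, Ier2 31.1 ± 12.5 and 57.4 ± 21.6 CPM, and Egr1 51.5 ± 24.5 and 97.7 ± 45.3 CPM. Estimates were below 0 for 8 of the 10 members, with a median of -0.51 against 0.03 over all genes. Every member's libraries overlapped between the doses, whereas those of 0.849% of genes did not. The estimate was -1.48 for Junb (SE 0.50, adjusted p = 0.34), -0.97 for Egr1 (SE 0.36, adjusted p = 0.37), -0.93 for Ier2 (SE 0.31, adjusted p = 0.33) and -0.91 for Fosb (SE 0.40, adjusted p = 0.41). These 4 had an unadjusted p under 0.05, as 11.5% of genes had. The test called 0.00351% of 28493 genes and none of the members. DESeq2's Wald test called Junb (-1.51, adjusted p = 0.038), in a fit that called 222 genes against 1 in the reported fit. Jund (0.37, SE 0.22) and Myc (0.22, SE 0.29) had estimates above 0. The library at 2.5 h and 0.2 Gy was the lowest of all 13 for Fos, Jun, Junb, Egr1 and Ier2, and without it 2 members had an unadjusted p under 0.05 instead of 4. The count was also 2 without the library at 2.5 h and 0.5 Gy, and without the one at 0 h or the one at 1 h and 0.2 Gy. It rose to 5 without 1 h replicate 2 at 0.5 Gy, and the alternative fits on all libraries gave 4 to 5. Granulosa cell and stroma markers had medians of -0.12 and -0.09 in this comparison, and the library at 2.5 h had the lowest summed granulosa cell level, 1355 CPM, but 3412 CPM of stroma markers. Red blood cell genes had a median of -0.58, with 3 of 5 at an unadjusted p under 0.05, all lower at 0.2 Gy, and their summed level was 860 CPM in the library at 2.5 h and 0.2 Gy and at least 2208 CPM in the other 12. Macrophage and leukocyte genes had a median of -0.46, with none of 6 estimates above 0, and granulocyte genes one of -0.73. The part of these cells was not tested. The 0 h library of 0.2 Gy was also low, with 6 members among their lowest 3 of 13 values.

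Within 0.5 Gy the second generation was compared with the first, as the labels give them. This comparison, with time points matched, was added after the values had been seen, so its p-values are no independent test of a difference between generations. Egr1 had 146.6 ± 29.5 CPM (SD, n = 3) in the first and 68.3 ± 16.9 CPM (SD, n = 5) in the second generation, with no overlap, a difference of -1.24 (SE 0.25, adjusted p = 0.22) in a test that called 0.0913% of 28468 genes, while 9.27% of genes did not overlap. Ier3, with averages of 13.4 CPM in the first and 9.75 CPM in the second, did not overlap either. Fos gave -0.92 (SE 0.30, adjusted p = 0.44) and Egr2 -1.74 (SE 0.66, adjusted p = 0.50). These 3 of the members had an unadjusted p under 0.05, which 9.16% of genes had. The reported fit called 26 genes, DESeq2's Wald test 275, the fit without the filter on low counts 453 and fits with a library left out 25 to 186. Egr1 was called by DESeq2's Wald test (adjusted p = 0.000493) and without that filter (adjusted p = 3.55e-06), where Fos also had an adjusted p under 0.05 (0.011) at a fold under the limit (-0.93). It was also called without 0 h replicate 1 or 2 (adjusted p = 0.048 and 0.044), as was Fos (adjusted p = 0.043 and 0.041), and without 4 h replicate 1 or 2 (adjusted p = 0.011 and 0.0075). Without 1 h replicate 1 the difference was -0.93 for Egr1 and -0.49 for Fos, without 1 h replicate 2 -0.94 and -0.50, and 1 member instead of 3 had an unadjusted p under 0.05 in each case. With the generations of the 1 and 4 h libraries exchanged, Egr1 gave 0.45 and Fos 0.78 (adjusted p = 1.00 for each), 0 members had an unadjusted p under 0.05 and 0 genes were called, so the difference rests on the labels' assignment. Granulosa cell and stroma markers had medians of -0.16 and -0.21 by the labels' generations, with 4 of 12 and 2 of 9 estimates above 0. At an unadjusted p under 0.05, 1 granulosa cell gene was higher and 2 stroma genes were lower. Ovarian surface epithelium markers had a median of -0.23, with 1 of 4 above 0 and 1 lower at such a p. Oocyte markers had 10 of 12 above 0 (median 0.22), macrophage and leukocyte markers 5 of 6 (0.41), granulocyte markers 5 of 6 (0.93) and red blood cell markers 4 of 5 (0.19, with 2 higher at an unadjusted p under 0.05). Heat shock genes, a stress list, had a median of 0.44, with 3 of 8 higher at an unadjusted p under 0.05. None of these genes was called, and the part of these cells and of stress was not tested.

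By the labels, replicate 2 minus replicate 1 at 0.5 Gy is also second minus first generation at that time, so the values that follow are the same contrast taken time by time. Replicate 2 minus replicate 1 at 1 h was -2.46 for Egr2, -2.30 for Junb, -1.88 for Egr1, -1.82 for Fos, -1.73 for Fosb and -1.21 for Ier2 on the log2 scale, while the median gene differed by 0.45 in size, and the median gene at 5 CPM or more by 0.31. At 0 h the same difference was -2.37 for Egr2, -1.23 for Egr1, -0.98 for Ier3, -0.78 for Fosb and -0.24 for Fos. It was 0.58 for Jund, 0.57 for Junb and 0.40 for Ier2 at 0 h, where the median gene differed by 0.58 in size. At 4 h the same difference was -0.78 for Fos and -0.67 for Egr1 but 0.85 for Fosb and 0.81 for Ier2. Jun differed by 0.58, 0.01 and 0.13 at 0, 1 and 4 h. Over all 13 libraries the SD of log2 CPM was 1.05 for Junb, 0.93 for Fos, 0.87 for Egr2, 0.82 for Egr1, 0.75 for Fosb and 0.75 for Ier2, and 0.38 to 0.52 for Ier3, Jund, Jun and Myc. The median over the 28493 genes tested was 0.55. Of the 12831 genes at a mean of 5 CPM or more, whose median was 0.33, 95.2 to 97.8% had a smaller SD than Junb, Fos, Egr1 and Ier2; Egr2 and Fosb were under that level.

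**Figure D3:**
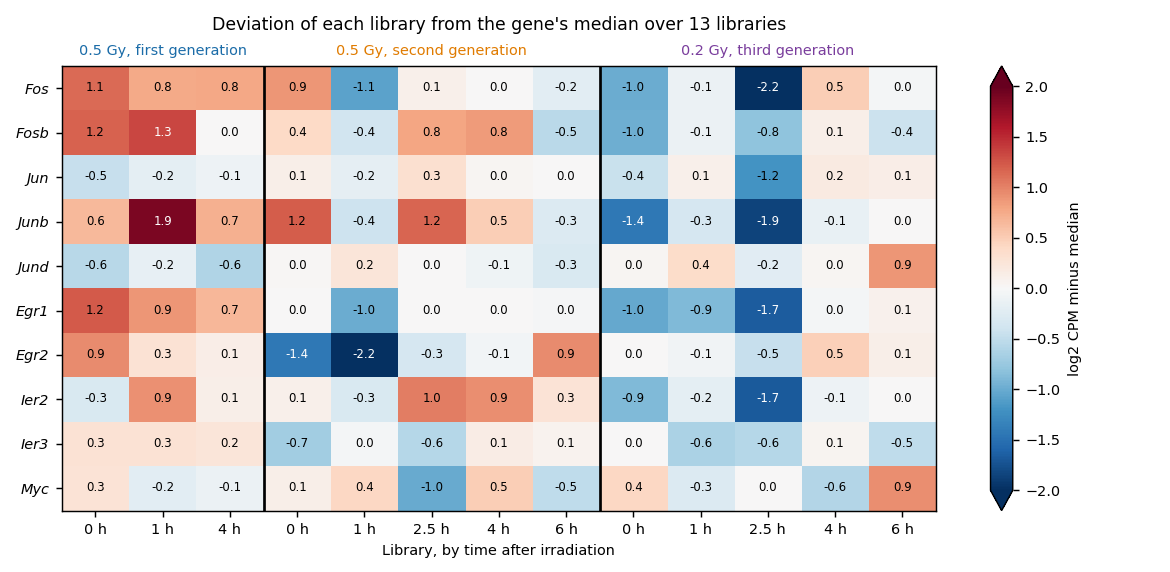
Log2 CPM of each immediate early gene in each of the 13 libraries minus that gene's median over them, with libraries ordered by generation and time. The column at 2.5 h and 0.2 Gy is the lowest of all 13 for Fos, Jun, Junb, Egr1 and Ier2, and the columns labelled first generation are red for Fos and Egr1.

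All pairs among Fos, Fosb, Junb and Egr1 were correlated across libraries, and Ier2 with Junb. Over the 13 libraries, log2 levels of Fos and Egr1 had a Pearson r of 0.90 (permutation p = 3.0e-05, adjusted over 45 pairs of members 0.0013) and a Spearman rho of 0.84 (permutation p = 0.00074, adjusted 0.011). The r was 0.83 without the 2 libraries farthest from the median of Fos, 0.88 within the 8 libraries of 0.5 Gy and 0.87 after centring each generation on its mean. Fosb and Junb had an r of 0.86 (adjusted permutation p = 0.0038) and a rho of 0.82 (adjusted permutation p = 0.012), and Fos and Junb an r of 0.84 (adjusted permutation p = 0.0044) and a rho of 0.86 (adjusted permutation p = 0.0076). Of the 45 pairs, 9 passed by r and 8 by rho, with 7 by both. Those passing by both were the 6 pairs among Fos, Fosb, Junb and Egr1 and the pair of Junb and Ier2. For these 7 the r was 0.58 to 0.85 without the 2 farthest libraries, 0.54 to 0.88 within 0.5 Gy and 0.53 to 0.87 after centring each generation. Ier2 passed by neither measure with Fos (r = 0.65, adjusted permutation p = 0.079) or Egr1 (r = 0.64, adjusted permutation p = 0.079), and within 0.5 Gy these r were 0.03 and 0.08. Jun with Ier2 and Fosb with Ier2 passed by r only and Egr2 with Ier3 by rho only. Egr2 and Egr1 had an r of 0.50, and of 0.76 within 0.5 Gy, and did not pass. The generations hold 3, 5 and 5 libraries, too few for a coefficient of their own. The points of 1 generation share what set that generation apart, and the pairs were examined after the values had been seen. The permutations treated the 13 libraries as exchangeable, though they differ in generation and time. How many pairs of other genes would pass was not counted, so the number of passing pairs has no base rate beside it.

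**Figure D4:**
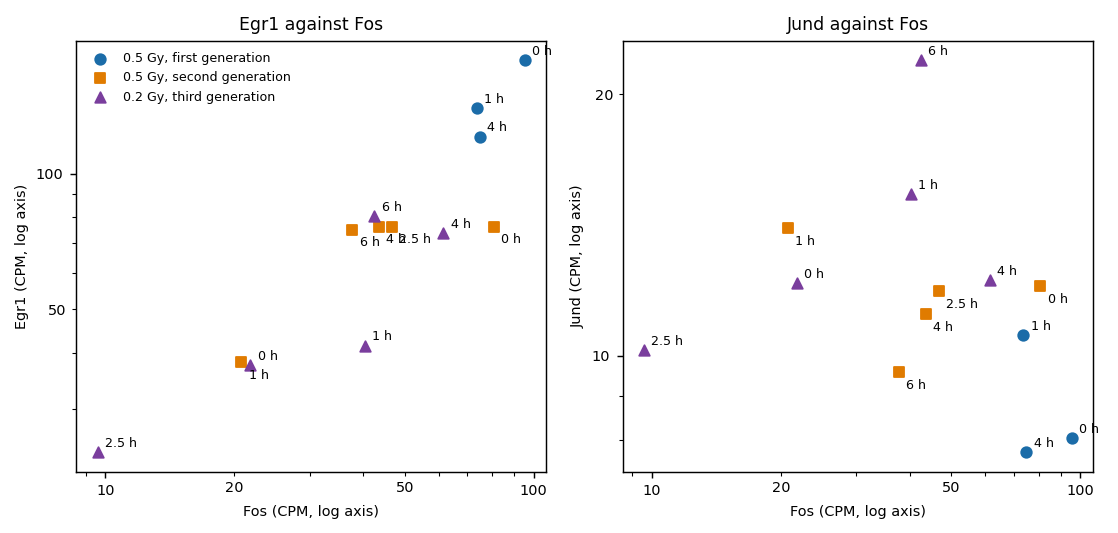
Level of Egr1 (left) and of Jund (right) against that of Fos in CPM on log axes, 1 point per library, labelled with its time and coloured by generation. Egr1 and Fos are both lowest at 2.5 h and 0.2 Gy (24.0 and 9.60 CPM) and both highest at 0 h in the library labelled first generation (179 and 95.4 CPM), whereas Jund has no such order.

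Outside the members, the genes whose log2 levels were most like the mean standardised profile of the 10 were Bex3 (r = 0.89 over 13 libraries), Sarnp (r = 0.88), Atp5s (r = 0.87), Tsen15 (r = 0.87) and Mrpl35 (r = 0.86), out of 19144 protein-coding genes compared. None of these is an immediate early gene.

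Other genes of the pathway were counted by list. Of 37 other immediate early genes, none was called in any of the 8 comparisons. Between late and early libraries at 0.5 Gy, where 35 were tested, 5 had an unadjusted p under 0.05 as higher and 2 as lower, with a median of -0.01; 9.06% of all genes had such a p. Btg2, an antiproliferative gene that p53 also activates, went from 81.7 to 188 CPM (1.20, SE 0.21, adjusted p = 0.065) and Plk2, a kinase gene that is likewise a p53 target, from 57.4 to 119 CPM (1.04, SE 0.22, adjusted p = 0.14), while Ccn2, a matrix protein gene, gave -0.77 (SE 0.22, adjusted p = 0.32). At 0.2 Gy Btg2 gave 0.95 (SE 0.31, adjusted p = 0.64). The smallest p of this list between the generations was that of Btg1, at 365 CPM in the first and 183 CPM in the second (-1.04, SE 0.16, adjusted p = 0.089).

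None of the 12 other AP-1 and bZIP genes, the 16 genes of the MAP kinase, SRF and ELK inputs, the 10 genes of the MYC network or the 8 heat shock genes was called between late and early libraries at 0.5 Gy. Medians of these lists were -0.19, -0.06, -0.08 and -0.03, against -0.02 over all genes. The smallest p were those of Jdp2, a JUN dimerisation partner (-1.37, SE 0.43, adjusted p = 0.40), Mapk8, which encodes the kinase JNK1 (-0.34, SE 0.16, adjusted p = 0.56), Mxd1, an antagonist of MYC (0.79, SE 0.20, adjusted p = 0.26), and Hspe1, a mitochondrial chaperonin (-0.43, SE 0.19, adjusted p = 0.52). After 0.2 Gy 3 of the 16 MAP kinase pathway genes had an unadjusted p under 0.05, as 7.29% of all genes had, and all were higher at 4 and 6 h, in the libraries where the estimates of granulosa cell and stroma genes were mostly above 0 too. Among them was Srf, which encodes the factor that binds the CArG box (1.07, SE 0.40, adjusted p = 0.65).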

How the data were processed

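The authors quantified reads with Salmon against the mouse transcriptome. The deposited tables hold, per transcript, an estimated count and a TPM value, which the authors' run of Salmon scaled to transcript length and library. Version 1.24.0 of DESeq2 is named in the submitters' processing notes, and deposited tables of merged normalized values and of the authors' fold changes and p-values were not used. Here estimated counts were summed per gene with GENCODE mouse release 21 (GRCm38), leaving out transcripts without a gene, 0.318 to 0.495% of reads per library, and rounded. TPM was summed per gene for levels between genes. CPM values were scaled by TMM over all 13 libraries, and log2 CPM used a prior count of 2.

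Comparisons were fitted over all genes with edgeR 4.0.16 (glmQLFit and glmQLFTest, TMM, filterByExpr) in R 4.3.3, with Benjamini-Hochberg adjustment. Called genes had an adjusted p under 0.05 and a log2 fold change over 1 in size; the F test over time points used the adjusted p alone. SE was the fold change divided by the root of F. The code was tested on simulated data with known changes. Alternatives were DESeq2 1.42.0, DESeq2 size factors, no filter on low counts, a replicate block, exchanged generation labels and leaving out each library. Correlations had 100000 two-sided permutations. Promoter windows of RefSeq were searched for letters only. All members were named, other genes were taken from the called genes of a list or, where there were none, its 3 smallest p, and the 5 genes most like the members were taken by r. The members and all gene lists were chosen with earlier results of these data known. Intervals between libraries are limited by the 15709549 to 30430104 reads per library and by 1 or 2 libraries per time point.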

Additional observations from a re-analysis of the deposited data

Results flagged for a closer look

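In 50 sets of 4 to 10 libraries, each for 1 member and 1 group of libraries, 2 had a library far from the rest by Dixon's criterion, which chance passes in about 1 of 20 sets. Both were for Egr1. Among the 4 libraries of 2.5, 4 and 6 h at 0.5 Gy, 4 h replicate 1 was highest with 121 CPM, while the other 3 had 75.0 to 76.2 CPM. It is the one among them labelled first generation, a label that a table of read totals in the study reverses. Among the 5 libraries labelled second generation, 1 h replicate 2 was lowest with 38.1 CPM against 75.0 to 76.2 CPM in the other 4. That library also had the lowest Egr2 level of all 13, 0.335 CPM.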

How the results depend on the processing

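Of 330 results under other tools, filters, scalings, the replicate block and exchanged generations, 313 kept their direction and their side of the threshold, and of 750 with a library left out 685 did. Those of the F test have no direction and were judged by the threshold alone. No member was called in the reported fits, so a result could change side only by being called. DESeq2's Wald test called 1 member, Junb, between doses and 1, Egr1, between generations, as did the fit without a filter (1, Egr1); leaving out a library gave 0 to 2 called members between generations. No alternative called a member in the other 6 comparisons. Without the filter, Jun and Myc at 1 h were 0.030 and 0.010 and Ier3 late against early at 0.5 Gy was 0.028. At 0, 1 and 4 h libraries of the same replicate number carry the same generation label, but the labels do not say what a generation shares. Their deviations correlated at 0.130, 0.0784 and 0.109 across genes for 0 and 1 h, 0 and 4 h and 1 and 4 h, not all over 0.1, so the reported fits have no block. These values are over all genes and do not show what the generation label carries for the members. With the replicate block, Jun and Junb at 1 h were 0.0081 and -0.046, Egr2 after irradiation was 0.64, and Egr1 and Ier3 late against early at 0.5 Gy were 0.14 and 0.14; 0 members were called. With the generations of the 1 and 4 h libraries exchanged, an alternative chosen after seeing the data, the difference between generations was 0.78 for Fos, 1.02 for Junb, -0.13 for Jund, 0.45 for Egr1, 0.13 for Egr2 and -0.47 for Myc, each of the opposite sign, and 0 members and 0 genes were called. The cause was not tested.

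Leaving out 1 library gave these ranges of log2 fold changes that crossed 0. At 1 h they were -1.22 to 0.50 for Fosb, -0.29 to 0.31 for Jun, -1.36 to 0.93 for Junb, -1.71 to 0.23 for Egr1, -2.57 to 1.04 for Egr2, -0.18 to 1.00 for Ier2, -0.11 to 0.85 for Ier3 and -0.41 to 0.26 for Myc. After irradiation they were -0.069 to 0.53 for Jun, -0.66 to 0.055 for Junb, -0.14 to 0.46 for Jund, -1.05 to 0.16 for Egr1, -0.89 to 1.59 for Egr2 and -0.29 to 0.68 for Ier3. Late against early they were -0.58 to 0.044 for Egr1 and -0.18 to 0.14 for Ier3 at 0.5 Gy, and -0.16 to 0.66 for Jund, -0.25 to 0.47 for Ier3 and -0.69 to 0.81 for Myc at 0.2 Gy. For the difference between doses of that change they were -0.056 to 0.46 for Jun, -0.82 to 0.22 for Egr2, -0.18 to 0.56 for Ier2, -0.42 to 0.33 for Ier3 and -0.54 to 0.94 for Myc. For 0.2 against 0.5 Gy they were -0.30 to 0.075 for Jun, -0.18 to 0.28 for Egr2 and -0.053 to 0.51 for Myc. Between generations they were -1.27 to 0.053 for Fosb, -1.25 to 0.19 for Junb and -0.40 to 0.62 for Ier2.

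Counts of called genes over the whole table moved more. Late against early at 0.5 Gy they were 29, against 58 without a filter, 251 by DESeq2 and 10 to 37 with a library left out. Between generations they were 26, 453, 275 and 25 to 186. For 0.2 against 0.5 Gy they were 1, 52 and 222, with 39 under the replicate block and 0 to 5 with a library left out. After irradiation they were 0, 182 and 223, with 7 under the replicate block, over any time point 0, 175 and 222, and at 1 h 0, 30 and 30. Late against early at 0.2 Gy they were 13, 32 and 147, and for its difference between doses 9, 22 and 134. Counts with a library left out are not given for comparisons where that can leave 1 library on a side.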
